A study of Mus musculus with 4 samples.

Results

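The 10 genes described here belong to the choroid plexus epithelium and of multiciliated ependyma, and their RNA was followed across newborn cerebral cortex: Ttr, Folr1, Clic6, Otx2, Sostdc1, Aqp1, Enpp2, Kl, Prlr and Foxj1. They were picked by name as markers of tissue that can be carried along with dissected cortex. Earlier results of these data were known at that point, so the list is not independent of them. Each gene matched 1 of the 55414 rows of the deposited gene table. Of the 17017 genes that passed the filter on low counts, 9 were among these 10. Kl was too low to pass it. The cortex came from C57BL/6J mice on postnatal day 1. There were 2 libraries labelled cKO, from mice with both Mkk7 (Map2k7) alleles floxed and an Emx1-Cre allele, and 2 labelled Control, from mice with the same floxed alleles and no Emx1-Cre. In both groups the libraries are numbered 2 and 3. Emx1-Cre is active in the radial progenitors of the dorsal forebrain, whose offspring include the excitatory neurons of the cortex, so cells of other origin in the tissue keep the floxed alleles. Nothing in the labels states that both libraries of a genotype are from different animals or litters, or that animals were or were not pooled. The p-values therefore reflect how far these libraries scatter, and that scatter may be technical.

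The choroid plexus is a folded epithelium inside the brain ventricles that secretes the cerebrospinal fluid. It grows out of the dorsal midline, next to the cortical hem, and lies loose in the ventricle beside the cortex. Its cells make large amounts of transthyretin and take up folate through a dedicated receptor, while the ependyma that lines the ventricles carries motile cilia built under the transcription factor FOXJ1. In bulk tissue, fewer cells of a type and less RNA per cell cannot be told apart.

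Library totals lay between 19421470 and 22511175 counts, with counts in 21598 to 21914 genes. The cortical neuron genes Neurod6 (730, 720 CPM in cKO 2 and cKO 3, against 480, 587 CPM in Control 2 and Control 3) and Emx1 (22.5, 17.2 against 12.6, 11.1 CPM) were read in every library; CPM is a count scaled to a library of 1e+06 counts. Map2k7 stood at 47.9 and 48.2 CPM in cKO 2 and cKO 3, against 38.4 and 30.4 CPM in Control 2 and Control 3 (edgeR adjusted p = 0.428; log2 fold change 0.48, SE 0.18). Which exons were floxed is not stated in the labels, so a sum over the gene does not check the labels, and every genotype direction rests on them. Xist had 1218 and 0 counts in cKO 2 and cKO 3, against 1145 and 1004 in Control 2 and Control 3, and the Y-linked Ddx3y had counts, 985, in cKO 3 alone of the 4 libraries. The library cKO 3 was thus male and the others female.

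The 250 bases before the start are shown for 3 choroid plexus genes that were low together in both libraries numbered 3 (values below). RefSeq windows on GRCm38.p6 matched 4 of the 10 genes (Kl, Aqp1, Otx2 and Prlr, with 9 windows) and 23 of 24 other choroid plexus epithelium genes (26 windows). Ttr, Folr1, Sostdc1, Enpp2, Clic6 and Foxj1 were not matched. A RefSeq window holds the 250 bases before the start and 50 bases after it, and the whole window was searched on both strands. The motifs were TAATCC, the core bound by OTX factors, TGTTTAC, a forkhead core, and GTTGCC, part of the motif of the RFX factors of ciliogenesis. No motif lies within another. Capitals mark a match, read on the strand of the gene from 5′ to 3′, and the last base printed is the base before the start.
Otx2, homeodomain factor, the third of its starts, chr14:48665110-48665359, minus strand, GRCm38.p6: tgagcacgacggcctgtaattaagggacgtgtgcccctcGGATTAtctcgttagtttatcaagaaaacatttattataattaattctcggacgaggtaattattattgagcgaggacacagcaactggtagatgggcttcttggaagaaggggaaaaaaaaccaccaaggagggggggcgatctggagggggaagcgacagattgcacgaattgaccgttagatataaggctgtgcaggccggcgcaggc
Kcne2, potassium channel subunit, first start, chr16:92292139-92292388, plus strand, GRCm38.p6: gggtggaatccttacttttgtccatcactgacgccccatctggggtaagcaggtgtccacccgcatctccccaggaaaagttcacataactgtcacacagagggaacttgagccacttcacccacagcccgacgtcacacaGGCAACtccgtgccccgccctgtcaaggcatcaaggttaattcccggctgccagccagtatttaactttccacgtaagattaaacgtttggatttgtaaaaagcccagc
Slc4a5, sodium bicarbonate cotransporter, chr6:83237125-83237374, plus strand, GRCm38.p6: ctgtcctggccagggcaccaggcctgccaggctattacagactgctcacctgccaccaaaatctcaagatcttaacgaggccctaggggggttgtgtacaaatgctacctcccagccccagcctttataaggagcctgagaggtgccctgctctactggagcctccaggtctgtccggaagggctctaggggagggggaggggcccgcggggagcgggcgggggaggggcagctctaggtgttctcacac
The Otx2 window shown held GGATTA, the OTX core on the opposite strand, from 211 bases before the start. Of the Otx2 windows it was the only one with this core. The first Kcne2 window held GGCAAC, the RFX core on the opposite strand, from 109 bases before the start. The second Kcne2 window, not shown, and the Slc4a5 window held none of the 3 motifs. The OTX core was present in 1 of the 9 windows of the 10 genes and 2 of the 26 windows of the other choroid plexus genes, against 7.06% of all 32851 RefSeq windows. The RFX core stood in 3 of 9 and 3 of 26, against 12.5% of all (the first 2 Otx2 windows overlap and share 1 match, so 2 of those 3 windows hold the same site), and the forkhead core in 1 of 9 (Prlr, second start) and 0 of 26, against 3.65%. A match describes the letters of a window and is not a bound site.

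Between genotypes, no gene of the 10 passed the test. The edgeR quasi-likelihood test called 8 of 17017 genes at an adjusted p below 0.05, or 0.047% (1 higher and 7 lower in cKO), and 0 of the 9 tested choroid plexus and ependyma genes; at an unadjusted p below 0.05 it gave 1, Prlr, against 1862 of all genes. DESeq2 called 1 of them, Prlr, and 190 of 26543 genes, or 0.716%. Fold changes of cKO over Control were positive for 3 and negative for 6 of the 9, with a median log2 value of -0.66, against -0.00206 over all tested genes. Libraries of both genotypes did not overlap for 2 of the 9, both lower in cKO (Enpp2 and Prlr), where 22.2% of all tested genes did the same, and for 0 of 9 with cKO higher, against 22% of all.

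For Ttr, Folr1, Clic6 and Otx2 the larger differences lay between the 2 libraries of a genotype. These 4 genes were high in cKO 2 and Control 2 and low in cKO 3 and Control 3. On the log2(CPM + 0.5) scale, 4 of the 9 tested genes were at least 2-fold lower in cKO 3 than in cKO 2, where 3.95% of all tested genes were, and 6 of 9 were at least 2-fold lower in Control 3 than in Control 2, where 3.55% were. At a 4-fold limit, chosen after the values were seen, 10 of 17017 genes (0.0588%) were lower in both libraries numbered 3, and 4 of those 10 were Ttr, Folr1, Clic6 and Otx2. The median absolute log2 difference of the 9 genes was 0.78 between the cKO libraries and 1.28 between the Control libraries, against 0.29 and 0.22 over all tested genes. By Xist and Ddx3y, cKO 3 was male and cKO 2 female, while both Control libraries were female. The cKO pair therefore also differs in sex, and sex is not balanced between genotypes. The labels tie no replicate number to a litter, day or batch, and what separates the libraries was not tested.

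**Figure D1:**
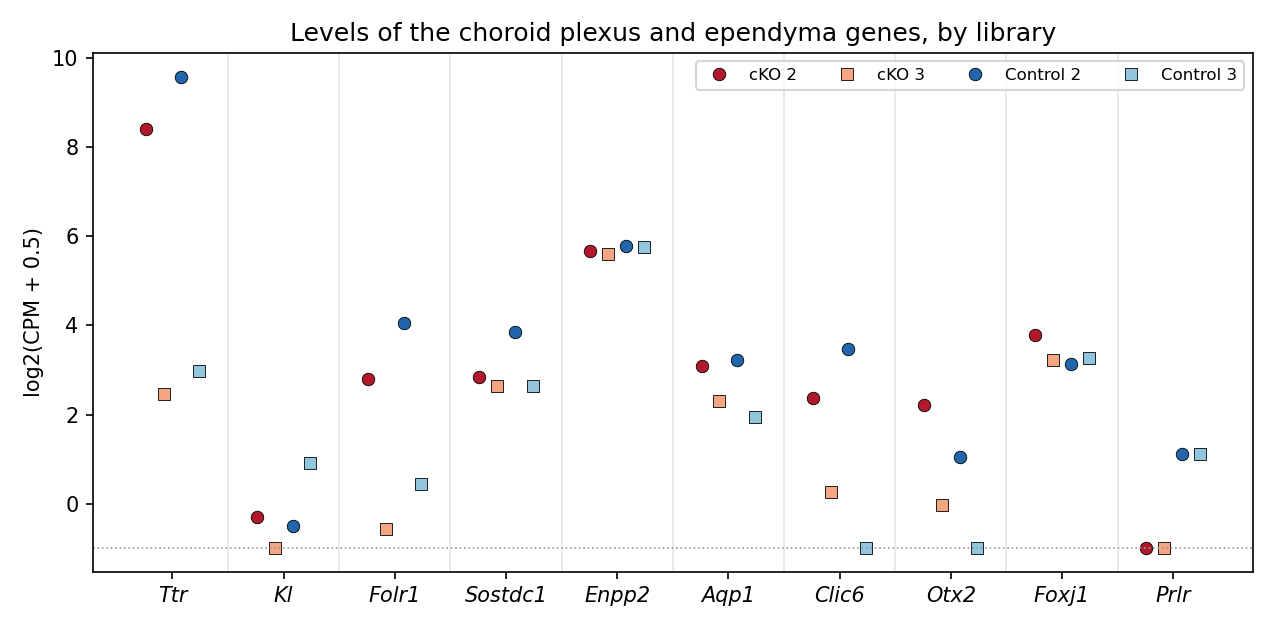
Level of each of the 10 genes in the 4 libraries, as log2(CPM + 0.5), with cKO 2 and cKO 3 left of Control 2 and Control 3. Points are single libraries (circles, number 2; squares, number 3) and the dotted line is a count of 0; Ttr spans 4.99 to 763 CPM while Enpp2 stays between 48.0 and 54.2 CPM.

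Ttr (ENSMUSG00000061808.5; chromosome 18, 20798337 to 20807378, plus strand, GRCm39) encodes transthyretin, the carrier that the choroid plexus secretes into the cerebrospinal fluid to transport thyroxine and retinol-binding protein. It was read 6368 and 114 times in cKO 2 and cKO 3, against 14984 and 144 times in Control 2 and Control 3. These counts correspond to 335 and 4.99 CPM in cKO 2 and cKO 3, against 763 and 7.31 CPM in Control 2 and Control 3. Each genotype thus had a library with much Ttr and a library with little, and the genotypes overlapped. Ttr in cKO 3 was 67.2 times lower than in cKO 2 (ratio 0.0149, counting interval 0.0123 to 0.0179), and in Control 3 it was 104 times lower than in Control 2 (ratio 0.00958, 0.00807 to 0.0113). Counting intervals here are exact, at 95%, and cover counting error only. The genotype means were 170 ± 234 CPM in cKO and 385 ± 534 CPM in Control (SD, n = 2 each), and the log2 fold change was -1.18 (SE 1.83, edgeR adjusted p = 0.856). That fold change was 4.53 without Control 2, -6.27 without cKO 2, -2.17 without Control 3 and -0.20 without cKO 3, so its sign rests on Control 2 and its size on each library.

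Per length, Ttr outweighed the other 9 genes together in 2 of the 4 libraries. In TPM, the deposited level per transcript length, Ttr stood at 429 and 7.35 in cKO 2 and cKO 3, against 1067 and 10.1 in Control 2 and Control 3. It made up 88.9% and 16.5% of the summed TPM of the 10 genes in cKO 2 and cKO 3, against 93.2% and 19.6% in Control 2 and Control 3. Without Ttr the sums were 53.8 and 37.1 TPM in cKO 2 and cKO 3, against 78.0 and 41.6 TPM in Control 2 and Control 3. In cKO 3 and Control 3 the gene of the 10 with the highest TPM was Enpp2, at 23.1 and 26.1 TPM. Of all counts, Ttr took 0.0328% in cKO 2 (Wilson interval 0.0320% to 0.0336%) and 0.000506% in cKO 3 (0.000422% to 0.000608%), against 0.0771% in Control 2 (0.0759% to 0.0784%) and 0.000726% in Control 3 (0.000616% to 0.000854%).

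Folr1 (ENSMUSG00000001827.13; chromosome 7, 101507538 to 101519995, minus strand, GRCm39) encodes folate receptor alpha, through which the choroid plexus passes folate into the cerebrospinal fluid. It had 123 and 4 counts in cKO 2 and cKO 3, against 316 and 17 counts in Control 2 and Control 3. The order of the libraries was that of Ttr. The ratio of cKO 3 to cKO 2 was 0.0270 (counting interval 0.00725 to 0.0710) and that of Control 3 to Control 2 was 0.0536 (0.0308 to 0.0872). The genotype log2 fold change was -1.36 (SE 1.44, edgeR adjusted p = 0.767); it was 1.93 without Control 2, -5.55 without cKO 2, -2.29 without Control 3 and -0.39 without cKO 3. Folr1 overlaps Anapc15 on the opposite strand, which had 849 and 724 counts in cKO 2 and cKO 3, against 762 and 650 counts in Control 2 and Control 3. The library kit marks no strand, so reads of the shared stretch cannot be assigned, and Anapc15 was read in all 4 libraries.

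Clic6 (ENSMUSG00000022949.10; chromosome 16, 92282624 to 92338131, plus strand, GRCm39) encodes a chloride intracellular channel family protein found in the choroid plexus. It had 89 and 16 counts in cKO 2 and cKO 3, against 207 and 0 counts in Control 2 and Control 3. The library cKO 3 stood at 0.150 of cKO 2 (counting interval 0.0819 to 0.256), and Control 3 was at least 69.2-fold lower than Control 2, taking 3 counts per library as the floor of a count of 0. That figure takes the Control 2 count as exact. The counting interval of the ratio of Control 3 to Control 2 ran up to 0.0179. The fitted genotype log2 fold change was -0.98 (SE 1.59, edgeR adjusted p = 0.862). Its sign was not stable: it was 8.78 without Control 2, where the remaining Control library is at 0 and the value is no bound, against -2.90 without cKO 2, -1.98 without Control 3 and -0.17 without cKO 3. The overlapping noncoding gene 2410124H12Rik had 0 and 9 counts in cKO 2 and cKO 3, against 0 and 2 in Control 2 and Control 3, so it was low where Clic6 was high.

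Otx2 (ENSMUSG00000021848.17; chromosome 14, 48895134 to 48911276, minus strand, GRCm39) encodes a homeodomain transcription factor needed for the choroid plexus to form. It had 79 and 11 counts in cKO 2 and cKO 3, against 31 and 0 counts in Control 2 and Control 3. Both libraries numbered 3 were again low, but here cKO 2, not Control 2, was the highest. The ratio of cKO 3 to cKO 2 was 0.116 (counting interval 0.0556 to 0.219). With 3 counts as the floor and the Control 2 count taken as exact, Control 3 was at least 10.4-fold lower than Control 2. The counting interval of that ratio, Control 3 to Control 2, ran up to 0.126. The genotype log2 fold change was 1.54 (SE 1.54, edgeR adjusted p = 0.750), with 8.57 without Control 2 (the remaining Control library is at 0, so this is no bound), -0.70 without cKO 2, 0.54 without Control 3 and 2.39 without cKO 3. The antisense gene Otx2os1 had 2 and 0 counts in cKO 2 and cKO 3, against 7 and 1 in Control 2 and Control 3; without strand, its reads and those of Otx2 cannot be told apart where they overlap.

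**Figure D2:**
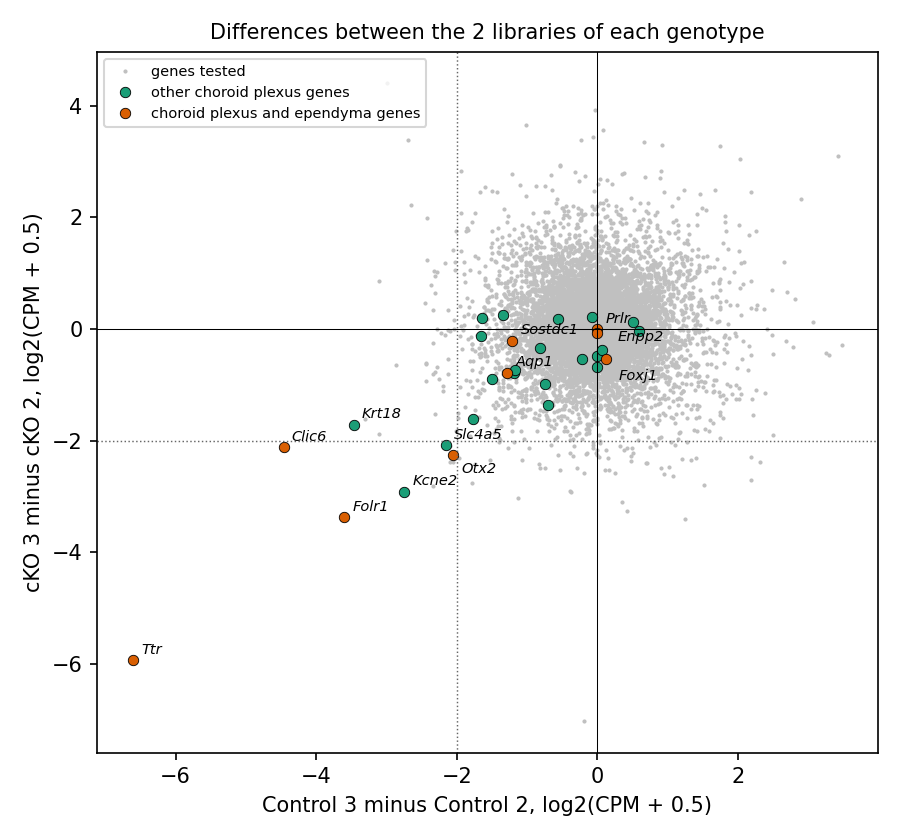
Difference between the 2 libraries of each genotype on the log2(CPM + 0.5) scale, cKO 3 minus cKO 2 on the vertical axis and Control 3 minus Control 2 on the horizontal axis, for the 17017 tested genes (grey), the other choroid plexus genes (green) and the choroid plexus and ependyma genes (orange). Dotted lines mark a 4-fold decrease; Ttr, Folr1, Clic6 and Otx2 lie beyond both, with Kcne2 and Slc4a5.

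Sostdc1, Aqp1 and Enpp2 varied less between libraries. Sostdc1 (ENSMUSG00000036169.7; chromosome 12, 36364138 to 36368451, plus strand, GRCm39), which encodes a secreted antagonist of BMP and Wnt signalling, had 127 and 131 counts in cKO 2 and cKO 3, against 274 and 113 in Control 2 and Control 3. Control 2 alone stood apart, and cKO 3 did not differ from cKO 2 beyond counting error (ratio 0.858, 0.667 to 1.10), whereas Control 3 was at 0.411 of Control 2 (0.327 to 0.514). Sostdc1 averaged 6.21 ± 0.672 CPM in cKO and 9.84 ± 5.81 CPM in Control (SD, n = 2 each), with a log2 fold change of -0.66 (SE 0.45, edgeR adjusted p = 0.628), of 0.11 without Control 2, and of -1.17 without Control 3.

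Aqp1 (ENSMUSG00000004655.6; chromosome 6, 55313417 to 55325540, plus strand, GRCm39) encodes the water channel of the apical choroid plexus membrane, which red blood cells also carry. It had 151 and 101 counts in cKO 2 and cKO 3, against 174 and 66 counts in Control 2 and Control 3. Both libraries numbered 3 were lower, at 0.556 of cKO 2 (counting interval 0.428 to 0.720) and 0.378 of Control 2 (0.280 to 0.505). Genotype means were 6.19 ± 2.49 CPM in cKO and 6.10 ± 3.90 CPM in Control (SD, n = 2 each; log2 fold change 0.02, SE 0.53, edgeR adjusted p = 0.994), and the fold change was 0.88 without Control 2, -0.52 without Control 3, -0.46 without cKO 2 and 0.38 without cKO 3. The 7 red blood cell genes, globins among them, summed to 16396 and 7297 TPM in cKO 2 and cKO 3, against 11528 and 12307 TPM in Control 2 and Control 3. They were lower in cKO 3, where Slc4a1 was at 0, but not in Control 3; their part in the Aqp1 values was not tested.

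Enpp2 (ENSMUSG00000022425.17; chromosome 15, 54702297 to 54816288, minus strand, GRCm39) encodes autotaxin, the secreted enzyme that makes lysophosphatidic acid, and is also expressed in oligodendrocyte lineage cells. It had 954 and 1096 counts in cKO 2 and cKO 3, against 1065 and 1062 counts in Control 2 and Control 3. All 4 libraries were close, at 50.2 and 48.0 CPM in cKO 2 and cKO 3, against 54.2 and 53.9 CPM in Control 2 and Control 3. The log2 fold change was -0.14 (SE 0.15, edgeR adjusted p = 0.774) and stayed between -0.17 and -0.11 when any library was left out. Within a genotype the ratio was 0.955 (counting interval 0.875 to 1.04) for cKO 3 over cKO 2 and 0.994 (0.912 to 1.08) for Control 3 over Control 2, while Ttr differed by 67.2 and 104 times between the same libraries. The 11 oligodendrocyte lineage genes summed to 131 and 173 TPM in cKO 2 and cKO 3, against 167 and 186 TPM in Control 2 and Control 3; their part in the Enpp2 level was not tested.

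Kl (ENSMUSG00000058488.8; chromosome 5, 150876072 to 150917282, plus strand, GRCm39) encodes Klotho, the co-receptor of the hormone FGF23. It had 6 and 0 counts in cKO 2 and cKO 3, against 4 and 27 counts in Control 2 and Control 3. Its highest library was Control 3, the Control library in which Ttr was low; the ratio of Control 3 to Control 2 was 6.73 (counting interval 2.34 to 26.5). Kl did not pass the filter, so the main fit gave it no genotype test. Without the filter its log2 fold change was -2.32 (SE 1.58, edgeR adjusted p = 0.743). With DESeq2 it was -2.35 (SE 1.98, DESeq2 adjusted p = 0.812).

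Prlr (ENSMUSG00000005268.21; chromosome 15, 10177324 to 10349266, plus strand, GRCm39) encodes the prolactin receptor, which signals through STAT5. It had 0 and 0 counts in cKO 2 and cKO 3, against 33 and 33 counts in Control 2 and Control 3. The groups did not overlap, and Prlr had equal counts in Control 3 and Control 2 (ratio 0.997, counting interval 0.596 to 1.67), unlike Ttr. With 3 counts per library as the floor, or 0.158 CPM, Prlr was at least 10.6-fold lower in cKO than the mean of 1.68 CPM in Control. That figure takes the Control mean as exact. Its edgeR adjusted p was 0.242 (unadjusted 0.00108), so it did not pass, and the adjusted p over the 11 alternatives in which it was tested ran between 0.0140, with DESeq2, and 0.919. Prlr passed the filter on low counts only through the Control libraries, where it is high.

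Genes of neighbouring brain regions were also set beside Prlr. Among the 9 diencephalon genes, 3 were tested and all 3 had lower values in both cKO libraries, as 22.2% of all tested genes had. Gbx2, a transcription factor of the developing thalamus, had 0 and 0 counts in cKO 2 and cKO 3, against 30 and 52 counts in Control 2 and Control 3, and like Prlr it passed the filter only through the Control libraries. Tcf7l2, a Wnt effector of the thalamus, had 100 and 172 counts in cKO 2 and cKO 3, against 217 and 216 in Control 2 and Control 3 (edgeR adjusted p = 0.439, log2 fold change -0.78, SE 0.31). The summed level of the 9 genes was 3.76 and 6.38 TPM in cKO 2 and cKO 3, against 8.34 and 10.8 TPM in Control 2 and Control 3, with 5 and 4 genes at 0 in cKO 2 and cKO 3, against 5 and 2 in Control 2 and Control 3. The 12 striatal neuron genes summed to 120 and 141 TPM in cKO 2 and cKO 3, against 417 and 304 TPM in Control 2 and Control 3 (median log2 fold change -2.03). All 12 were lower in both cKO libraries without overlap, against 22.2% of all tested genes. None of either list passed the edgeR test, and their part in the Prlr values was not tested.

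Foxj1 (ENSMUSG00000034227.8; chromosome 11, 116221530 to 116226225, minus strand, GRCm39) encodes the transcription factor that switches on motile cilium genes in ependyma and choroid plexus. It had 250 and 203 counts in cKO 2 and cKO 3, against 163 and 179 counts in Control 2 and Control 3. Its levels did not follow Ttr: cKO 3 was at 0.675 of cKO 2 (counting interval 0.558 to 0.816), and Control 3 was at 1.09 of Control 2 (0.880 to 1.36). Foxj1 averaged 11.0 ± 3.02 CPM in cKO and 8.69 ± 0.556 CPM in Control (SD, n = 2 each), with a log2 fold change of 0.34 (SE 0.31, edgeR adjusted p = 0.721), and of 0.03 without cKO 2, 0.60 without cKO 3, 0.27 without Control 2 and 0.40 without Control 3.

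**Figure D3:**
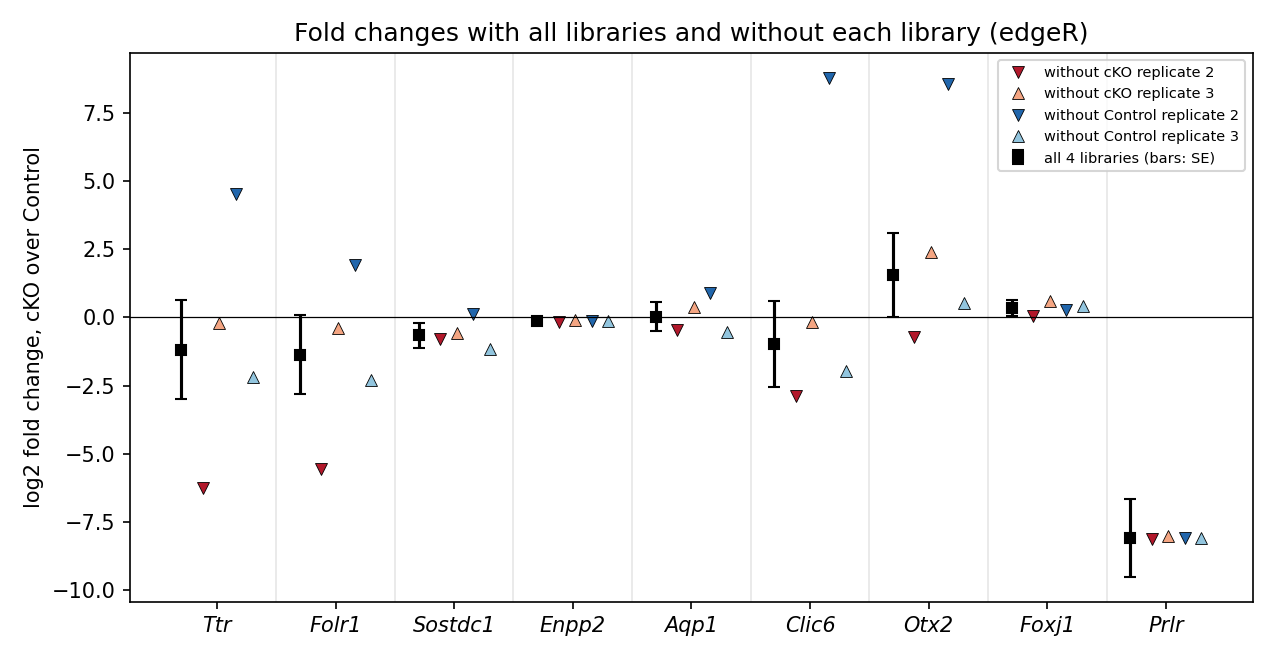
Log2 fold change of cKO over Control for the 9 tested genes with all 4 libraries (bars, SE) and with each library left out in turn. Ttr spans -6.27 to 4.53 and Clic6 -2.90 to 8.78, while Enpp2 stays between -0.17 and -0.11.

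A wider list of 24 other choroid plexus epithelium genes gave a mixed picture. Of its 21 tested genes, 4 were at least 2-fold lower in both libraries numbered 3 (Kcne2, Krt18, Slc4a5 and Wfikkn2), where 106 of all 17017 (0.623%) were. Taken singly, 5 of the 21 were at least 2-fold lower in cKO 3 than in cKO 2, against 3.95% of all tested genes. In Control 3, 10 of the 21 were at least 2-fold lower than in Control 2, against 3.55% of all. Kcne2, a potassium channel subunit, had 62 and 0 counts in cKO 2 and cKO 3, against 110 and 8 in Control 2 and Control 3. Krt18, an epithelial keratin, had 46 and 9 in cKO 2 and cKO 3, against 132 and 3 in Control 2 and Control 3. Slc4a5, a bicarbonate cotransporter, had 48 and 5 in cKO 2 and cKO 3, against 34 and 0 in Control 2 and Control 3. Kcne2 and Krt18 were highest in Control 2, as Ttr was, and Slc4a5 in cKO 2, as Otx2 was. The list as a whole summed to 193 and 185 TPM in cKO 2 and cKO 3, against 225 and 171 TPM in Control 2 and Control 3, a far smaller spread than that of Ttr. Much of that sum was a single gene, Slc29a4, named after its values were seen. It had 89.3 and 115 TPM in cKO 2 and cKO 3, against 94.5 and 84.7 TPM in Control 2 and Control 3. The sum therefore says little about the other genes of the list.

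Between genotypes none of the 21 passed the edgeR test, with 6 positive and 15 negative fold changes and a median log2 value of -0.52, against -0.00206 over all genes. For the 10 of the 21 that were at least 2-fold lower in Control 3 than in Control 2, the Control mean rests mainly on Control 2. Abca4, a transporter of retinoids, had 9 and 15 counts in cKO 2 and cKO 3, against 94 and 31 in Control 2 and Control 3 (log2 fold change -2.47, SE 0.77, edgeR adjusted p = 0.379). Kcnj13, an inward rectifier potassium channel of the choroid plexus, had 43 and 28 counts in cKO 2 and cKO 3, against 87 and 87 in Control 2 and Control 3 (-1.34, SE 0.51, adjusted p = 0.427). The groups did not overlap for either gene; in the list this held for 6 of 21 with cKO lower and 3 of 21 with cKO higher, against 22.2% and 22% of all tested genes. Slc13a4, a sulfate transporter also found in the meninges, had 396 and 521 counts in cKO 2 and cKO 3, against 220 and 318 in Control 2 and Control 3 (0.68, SE 0.26, edgeR adjusted p = 0.427). The 10 meningeal fibroblast genes were likewise higher in both cKO libraries in sum, at 195 and 193 TPM in cKO 2 and cKO 3, against 128 and 160 TPM in Control 2 and Control 3; their part in the Slc13a4 values was not tested. Wfdc2, a secreted epithelial protein, had 20 and 14 counts in cKO 2 and cKO 3, against 45 and 45 in Control 2 and Control 3.

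The 36 genes of motile cilia gave values in both directions between genotypes. Of 33 tested, 18 fold changes were positive and 15 negative (median log2 0.13), and none passed. Dnah9, a dynein heavy chain of motile cilia, had 86 and 74 counts in cKO 2 and cKO 3, against 33 and 30 in Control 2 and Control 3 (log2 fold change 1.27, SE 0.50, edgeR adjusted p = 0.435). Mcidas, an inducer of the multiciliated fate, had 46 and 75 counts in cKO 2 and cKO 3, against 31 and 21 in Control 2 and Control 3. Rfx3, a ciliogenic transcription factor, had 321 and 405 counts in cKO 2 and cKO 3, against 641 and 415 in Control 2 and Control 3 (-0.63, SE 0.26, edgeR adjusted p = 0.449), and Tppp3, a tubulin-binding protein, had 655 and 576 in cKO 2 and cKO 3, against 753 and 812 in Control 2 and Control 3. At least 2-fold lower in both libraries numbered 3 were 2 of the 33, Dnah6 and Dnai1, against 0.623% of all tested genes. Dnah6 had 0 counts in cKO 3 and Control 3. At least 2-fold higher in both was 1 of the 33, Cfap65, against 0.535% of all. In cKO 3, 9 of the 33 were at least 2-fold lower, and 4 in Control 3, against 3.95% and 3.55% of all. The summed level of the list was 182 and 155 TPM in cKO 2 and cKO 3, against 214 and 178 TPM in Control 2 and Control 3.

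**Figure D4:**
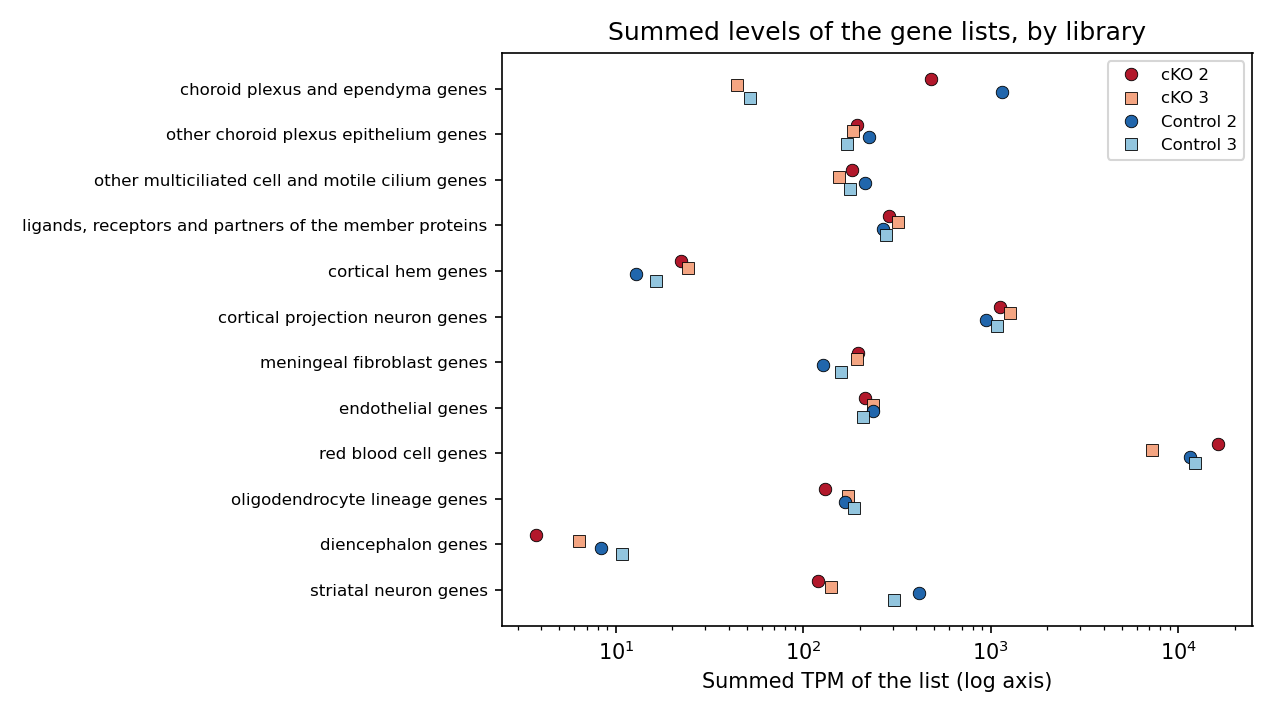
Summed TPM of each gene list in the 4 libraries, on a log-scaled axis, cKO 2 and cKO 3 listed before Control 2 and Control 3. The choroid plexus and ependyma genes span 44.5 to 1145 TPM, the widest relative range of the lists drawn.

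The proportion of each gene to Ttr was compared between the libraries numbered 2, as counts per Ttr count; with 114 and 144 Ttr counts in cKO 3 and Control 3, no such ratio was formed there. This is 1 library per genotype, so the ratios have counting error only and no replicate check. Folr1 (19.3 per 1000 Ttr counts in cKO 2, 21.1 in Control 2; ratio 0.916, 0.738 to 1.13), Clic6 (14.0 and 13.8; 1.01, 0.780 to 1.30) and Sostdc1 (19.9 and 18.3; 1.09, 0.877 to 1.35) had an interval that held 1. Otx2 did not, with 12.4 per 1000 Ttr counts in cKO 2 and 2.07 in Control 2 (ratio 6.00, 3.91 to 9.40). A gene at the same CPM in both libraries would have a ratio of 2.28, because Ttr itself was 2.28 times lower in cKO 2 than in Control 2. Enpp2 (2.11, 1.93 to 2.30) and Aqp1 (2.04, 1.63 to 2.55) lay near that value, and Foxj1 (3.61, 2.95 to 4.42) above it. Prlr, at 0 counts in cKO 2, had a ratio of 0 with an upper bound of 0.278.

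Among the 21 other choroid plexus genes, the interval held 1 for 7, lay above 1 for 13 and below 1 for 1. Kcnj13 (1.16, 0.788 to 1.69) and Kcne2 (1.33, 0.955 to 1.83) were among the 7. Like Otx2, Lmx1a, a transcription factor of the roof plate and hem, had a ratio above 2.28 (5.49, 3.09 to 10.1), and Slc13a4 did too (4.24, 3.58 to 5.02). Abca4 was the gene below 1 (0.225, 0.0999 to 0.446). The 9 cortical hem genes, from the tissue next to the choroid plexus, summed to 22.2 and 24.1 TPM in cKO 2 and cKO 3, against 12.7 and 16.4 TPM in Control 2 and Control 3. All 7 tested hem genes had a positive genotype fold change, none passed, and Wnt5a (0.75, SE 0.25, edgeR adjusted p = 0.399), Rspo3 (0.89, SE 0.34) and Rspo2 (0.68, SE 0.27) were higher in both cKO libraries, as 22% of all tested genes were. Their part in the Otx2 ratio was not tested.

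**Figure D5:**
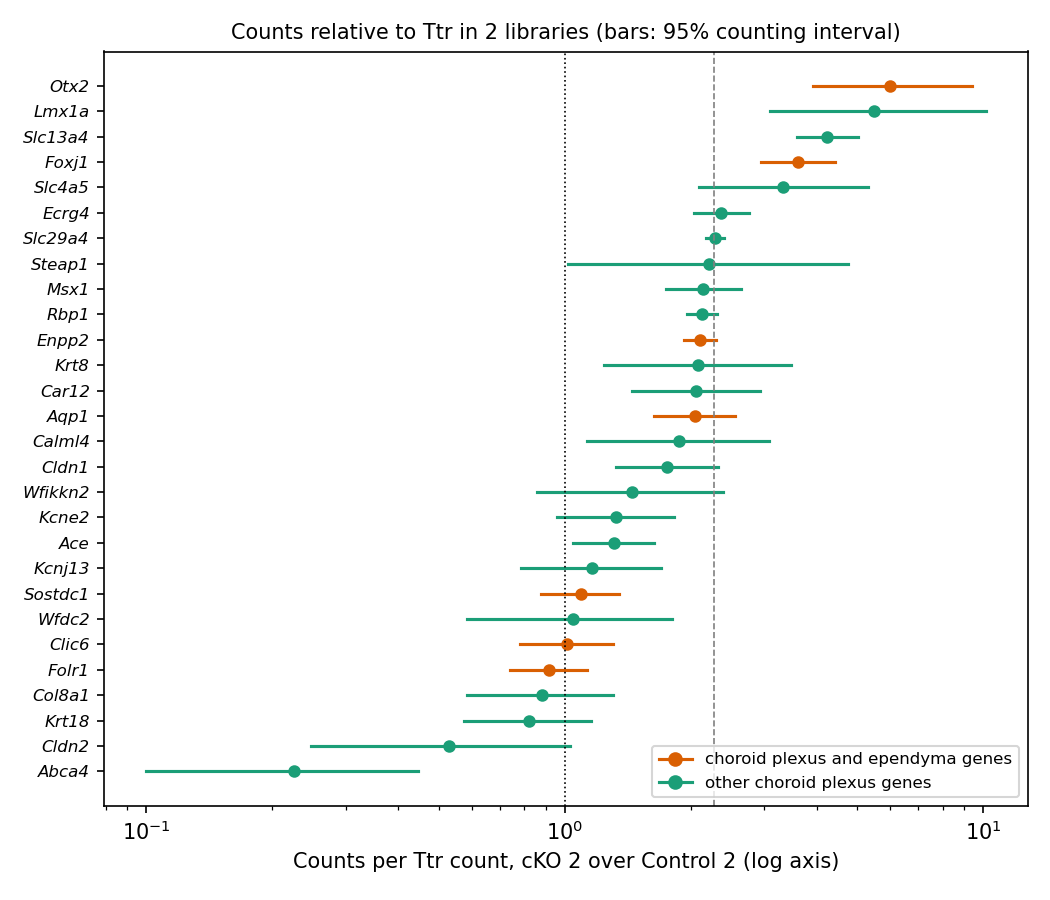
Counts of each choroid plexus gene relative to Ttr, cKO 2 over Control 2, on a log-scaled axis with counting intervals at 95%. The dotted line marks 1, the proportion of Ttr, and the dashed line 2.28, where a gene of equal CPM would fall; Prlr, at 0 counts in cKO 2, is not drawn. Intervals of Folr1, Clic6 and Sostdc1 cross 1 and Otx2 lies at 6.00.

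Likeness to Ttr was measured as the Euclidean distance between log2(CPM + 0.5) profiles over the 4 libraries, each centred on its mean, where 0 is the same profile. Among 11922 genes with a mean of at least 5 CPM, Folr1 was nearest (distance 2.81), followed by Plce1 (4.36), Strip2 (4.88), Arhgap24 (4.92), Rps12l1 (5.02) and Cfap20dc (5.04). Enpp2, close in all 4 libraries, stood at 6.29, so a distance near 5 is not far from that of a level gene. Plce1, a phospholipase C, had 6.58 and 1.49 CPM in cKO 2 and cKO 3, against 11.2 and 2.39 CPM in Control 2 and Control 3, so it too was low in both libraries numbered 3. Over all 17017 tested genes, a choice made after the values were seen, the nearest were Folr1, Clic6 (3.24), Kcne2 (3.47), Krt18 (3.75), Fam205a3 (3.80), Trpm5 (3.85) and Ptp4a1 (3.96). The distance favours genes with large differences, so it is a description of 4 libraries. Of the 10 genes that were 4-fold lower in both libraries numbered 3, those in none of the lists were Fam205a3, Pik3cg, Galnt6 and Pcdhb2, named after their values were seen. Galnt6 had 75 and 8 counts in cKO 2 and cKO 3, against 31 and 0 in Control 2 and Control 3, the order seen for Otx2.

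Ligands, receptors and partners of these proteins had a summed level of 287 and 320 TPM in cKO 2 and cKO 3, against 265 and 275 TPM in Control 2 and Control 3. Of 21 tested of 24, 11 fold changes were positive and 10 negative, and none passed. Lpar1, a receptor of the lysophosphatidic acid made by autotaxin, had 29.2 and 20.8 CPM in cKO 2 and cKO 3, against 12.8 and 15.9 CPM in Control 2 and Control 3 (log2 fold change 0.80, SE 0.26, edgeR adjusted p = 0.390). Lrp6, a Wnt co-receptor that SOSTDC1 binds, had 26.9 and 30.7 CPM in cKO 2 and cKO 3, against 20.5 and 15.1 CPM in Control 2 and Control 3 (0.69, SE 0.23, edgeR adjusted p = 0.399). For both genes the cKO libraries were above both Control libraries, as for 22% of all tested genes. Socs2, a target of STAT5 below the prolactin receptor, had 105 and 106 CPM in cKO 2 and cKO 3, against 86.7 and 82.9 CPM in Control 2 and Control 3. Cish, another target of STAT5, named after its values were seen, had values the other way round, with 15.7 and 16.0 CPM in cKO 2 and cKO 3, against 22.5 and 23.8 CPM in Control 2 and Control 3; the edgeR adjusted p was 0.431 for both genes. Prl, the ligand of that receptor, had 0 counts in all 4 libraries.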

How the data were processed

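RNA was measured by RNA-seq in 4 libraries of cerebral cortex made with the SMART-Seq v4 kit for small inputs, which marks no strand, per the labels' protocols. The authors deposited 1 table of estimated counts and TPM per gene, made with DRAGEN on GRCm39 per the submitters' processing notes; its version, annotation and settings: not given in the sources used here. In a library, 30.7% to 34.3% of genes with counts had a value that was not whole, so reads that match several genes can have been split. The authors' TPM columns each sum to 1e+06 and were used as deposited, for levels per length only.

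Expected counts were rounded to whole numbers. Genes were filtered by edgeR's default (17017 of 55414 kept), scaled by TMM and compared with edgeR's quasi-likelihood test (edgeR 4.0.16, R 4.3.3) with genotype as the only term, Benjamini-Hochberg adjustment over all tested genes and a threshold of 0.05; the SE is the absolute log2 fold change over the square root of F. The steps were tested on simulated data. Differences between libraries used log2(CPM + 0.5). Intervals cover the counting error of reads only. Reads carry no molecular identifiers, so copies of a molecule cannot be told apart, and the intervals may be too narrow. The 12 alternatives included DESeq2 1.42.0, limma-voom (limma 3.58.1), other scalings and filters, a replicate block and each library left out. The genes and lists were chosen with earlier results of these data known. Named genes are the 10 genes, up to 4 of each other list by smallest p, and the 5 genes nearest to Ttr; 1 gene that this rule names is not reported here, and others are said to be chosen after their values were seen, or are genes that a count or ratio beside them rests on.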

Additional observations from a re-analysis of the deposited data

How the results depend on the processing

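The genotype test called 8 genes in all 4 libraries together; it called 58 with no filter on low counts and 190 with DESeq2 (79 higher and 111 lower in cKO), and between 0 and 2 when a library was left out (0 without Control 2, Control 3 or cKO 3, and 2 without cKO 2). Of the 10 choroid plexus and ependyma genes it called 0 under every alternative except DESeq2, which called 1, Prlr (adjusted p = 0.0140); a mean of at least 1 CPM left Prlr untested. With the replicate number as a block it called 7 genes, none of the 10, and Ttr stood at -0.94 (adjusted p = 0.246); deviations of cKO 2 and Control 2 from their group means had r = 0.0123 over 17017 genes, and the labels do not tie the numbers, so the numbers were not taken as pairs. The log2 fold change of Clic6 turned to 1.73 with limma-voom and to 0.34 with the replicate block. With each library left out in turn it ran between -6.27 and 4.53 for Ttr, -5.55 and 1.93 for Folr1, -1.17 and 0.11 for Sostdc1, -2.90 and 8.78 for Clic6, -0.52 and 0.88 for Aqp1, and -0.70 and 8.57 for Otx2; the highest values of Clic6 and Otx2 are against a lone Control library at 0 and are no bounds. In these fits the lone library of a group is assumed to vary like the other group. By construction, each fit leaves either the high or the low library of a genotype. With a pseudocount of 0.1 CPM or with TPM, 4 of 9 and 6 of 9 genes were again at least 2-fold apart between the cKO and between the Control libraries. The cause of the other changes was not tested. With 2 libraries per genotype, and counts of 0 to 33 for Prlr, Kl and Otx2 in Control, depth and replication both limit these comparisons.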

Other observations

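Genes of the other tissues that a dissection of cortex can hold were also read. Of 12 cortical projection neuron genes, 10 had a positive and 2 a negative genotype fold change (median log2 0.19, none called by edgeR). Neurod2 had 356 and 303 CPM in cKO 2 and cKO 3, against 192 and 257 CPM in Control 2 and Control 3. Bcl11b, a factor of deep-layer and striatal neurons, had 201 and 212 CPM in cKO 2 and cKO 3, against 268 and 247 CPM in Control 2 and Control 3. Of 10 meningeal fibroblast genes, 8 were positive (median 0.38, none called), with Dcn, a matrix proteoglycan, at 75.3 and 62.8 CPM in cKO 2 and cKO 3, against 36.9 and 49.9 CPM in Control 2 and Control 3. Of 9 tested endothelial genes, 8 were positive (median 0.33, none called), with Flt1, a VEGF receptor, at 31.0 and 28.2 CPM in cKO 2 and cKO 3, against 19.1 and 17.6 CPM in Control 2 and Control 3. Of 10 tested oligodendrocyte lineage genes, 3 were positive and 7 negative (median -0.25, none called), and Mag, a myelin glycoprotein, had 14 and 20 counts in cKO 2 and cKO 3, against 59 and 57 counts in Control 2 and Control 3. The 7 red blood cell genes had 4 positive and 3 negative values (median 0.02, none called). The lowest and highest library of each of these lists in summed TPM lay far closer together, as a ratio, than those of Ttr.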
